A study of Homo sapiens with 6 samples.

Results

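Levels of 10 transcripts that are commonly used as stem-cell surface markers or pluripotency factors were examined in 3 states, namely parental, PGCC and daughter, of the ovarian cancer cell lines Hey and SKOV3. The genes were taken by symbol from the deposited table of 59008 genes, and all 10 were found. Of these, 7 encode surface proteins (CD44, PROM1, MME, ALCAM, THY1, ENG and KIT) and 3 encode transcription factors (POU5F1, KLF4 and MYC). Both lines are established human lines, and each of the 6 groups was sequenced as 1 library. No group had replicates, so single values carry no error and the other cell line is the only repeat of a comparison.

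Parental cells were untreated. PGCCs, polyploid giant cancer cells, had been exposed to 500 nM paclitaxel, which stabilizes microtubules and blocks mitosis, for 16 h by their label or for up to 18 h by the protocol. Both PGCC libraries are labelled with 3 days of recovery, although the title of the SKOV3 library says day 7. Daughter cells, the smaller cells that arise from PGCCs, received the same exposure and are labelled with 30 days of recovery. Each daughter title names clone 1, so a daughter library may represent 1 clone of its line. Values are transcripts per 1000000 (TPM), which are scaled by transcript length within a library and can be compared between genes. Differences are those of log2(TPM + 1), and a gene was called where this reached 1 in size, which is 2-fold. Where the TPM is near 1 or lower, this scale understates a ratio.

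The columns summed to 911825 to 920497 TPM, and 19920 to 25370 genes were above 0. Mitochondrial genes took 2.64% to 14.8% of the TPM of a library. Totals of mapped reads are stated for the libraries in the methods of the study, but TPM holds no counts per gene, so low values are given with no counting interval. Of 9 ovarian carcinoma markers, 6 to 9 reached 1 TPM in each library. Of 6 leukocyte markers at most 1, CD68, reached 1 TPM, and CD3E was listed at 0 in every library. Fibroblast markers summed to 0.172 to 3.52 TPM in Hey and 11.8 to 22.9 TPM in SKOV3. The endothelial cadherin CDH5 stood at 33.2 to 48.5 TPM in Hey, while the 4 endothelial markers summed to 0.343 to 2.92 TPM in SKOV3. In bulk RNA, fewer cells of a kind and less transcript per cell cannot be told apart.

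CD44 is a receptor for hyaluronan, and ALCAM (CD166) is an adhesion molecule of the immunoglobulin superfamily. MME (CD10, neprilysin) is a membrane metalloendopeptidase that cleaves peptides outside the cell. PROM1 (CD133) is a pentaspan protein of membrane protrusions, THY1 (CD90) is a glycosylphosphatidylinositol-anchored protein, ENG (CD105, endoglin) is a co-receptor for ligands of the TGF-β family and KIT (CD117) is the receptor tyrosine kinase for stem cell factor. These proteins are used to sort stem or mesenchymal cells, and several have been used for tumour-initiating cells of the ovary. POU5F1 (OCT4), KLF4 and MYC can, together with SOX2, reprogram somatic cells to pluripotency. MYC also drives ribosome production and growth in many cancers, whereas POU5F1 is otherwise largely limited to pluripotent and germ cells.

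Sequence upstream of the start site is shown for ENG, MME and KLF4, which differed most between Hey and SKOV3 among the members higher in Hey, and for ALCAM, whose levels were close in the lines. The sequences are RefSeq promoter windows on GRCh38.p14, read 5′ to 3′ on the strand of the gene and cut before any annotated exon. Capitals mark matches, on either strand, to any of 4 short promoter motifs. The first is the GC box, GGGCGG, which is bound by SP and Kruppel-like factors. The second motif is the CCAAT box, searched by these letters of its name. The TATA box was searched as TATAAA, and the E-box, to which MYC with MAX can bind, was searched as CACGTG.
ENG, chr9:127854659-127854908, minus strand: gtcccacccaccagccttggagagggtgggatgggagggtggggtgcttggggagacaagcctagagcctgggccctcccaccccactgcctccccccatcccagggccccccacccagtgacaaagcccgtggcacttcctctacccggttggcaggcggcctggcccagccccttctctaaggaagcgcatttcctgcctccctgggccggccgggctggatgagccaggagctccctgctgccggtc
MME, chr3:155079422-155079646, plus strand: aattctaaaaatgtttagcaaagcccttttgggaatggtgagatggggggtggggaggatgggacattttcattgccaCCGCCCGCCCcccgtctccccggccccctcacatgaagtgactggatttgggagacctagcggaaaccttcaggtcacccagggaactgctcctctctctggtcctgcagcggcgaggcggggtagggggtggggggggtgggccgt
KLF4, chr9:107489770-107490019, minus strand: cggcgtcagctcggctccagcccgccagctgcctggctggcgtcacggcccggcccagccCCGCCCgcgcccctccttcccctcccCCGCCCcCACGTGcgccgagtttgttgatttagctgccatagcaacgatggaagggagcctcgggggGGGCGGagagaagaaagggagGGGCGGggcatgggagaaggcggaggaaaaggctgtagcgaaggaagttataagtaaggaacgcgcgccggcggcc
ALCAM, chr3:105366659-105366908, plus strand: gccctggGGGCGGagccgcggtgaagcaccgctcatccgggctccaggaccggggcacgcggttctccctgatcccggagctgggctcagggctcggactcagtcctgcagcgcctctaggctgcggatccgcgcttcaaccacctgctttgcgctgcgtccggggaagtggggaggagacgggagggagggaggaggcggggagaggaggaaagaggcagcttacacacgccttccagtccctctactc
The KLF4 sequence held 4 GC boxes and 1 E-box. The MME sequence held 2 overlapping GC boxes, ALCAM held 1 and ENG held no match to any of the 4 motifs. MME has further RefSeq windows, which overlap annotated exons, and the first listed is shown. Of these, chr3:155079620-155079869 held 2 GC boxes and chr3:155079761-155080010 held 2 GC boxes and 1 CCAAT box. The window chr3:155080069-155080318 held no match. Among 35116 RefSeq windows of 250 bases, 42.6% held a GC box, 32.0% a CCAAT box, 10.7% a TATA box and 6.34% an E-box. The ENG window was rich in GC at 69.6% but held 7 CpG dinucleotides, against a median of 58% GC and 11 CpG over all windows. The corresponding values were 69.2% and 25 CpG for KLF4 and 68.8% and 20 CpG for ALCAM. A gene-level TPM does not tell which start site was used, and a match to these letters is a description of the window. RefSeq windows were found for 7 of the 10 genes and not for THY1, POU5F1 or MYC.

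CD44 was the most abundant member in all 3 Hey libraries. The gene lies on chr11:35138882-35232402 (plus strand, GRCh38). In Hey it reached 853 TPM in the parental library, 765 in the PGCC library and 712 in the daughter library, above 99.1% of detected genes or more in each. In SKOV3 it stood at 279, 179 and 315 TPM in the same order. Every Hey library was above every SKOV3 library. Within the lines, PGCCs differed from parental cells by -0.16 in Hey and -0.64 in SKOV3 on the log2 scale, both short of 2-fold.

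ALCAM (chr3:105366909-105576900, plus strand) was high in both lines. It stood at 242, 151 and 206 TPM in Hey parental cells, PGCCs and daughter cells. The values in SKOV3 were 356, 273 and 257 TPM. All SKOV3 libraries were above all Hey libraries, but no pair of libraries in the same state differed 2-fold. The PGCC value was below the parental value in both lines, by 0.68 in Hey and 0.38 in SKOV3, again short of 2-fold. After removal of a trend with GC content and transcript length, described below for POU5F1, the differences were -0.60 in Hey and 0.18 in SKOV3. The direction in SKOV3 thus depended on this correction.

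MME (chr3:155024124-155183704, plus strand) separated the lines more than any other member that was above 0 in all libraries. In Hey it stood at 717 TPM before treatment, 507 in PGCCs and 372 in daughter cells. In SKOV3 it stood at 5.04, 2.41 and 0.0792 TPM. The order was the same in both lines, with parental cells highest and daughter cells lowest. The daughter library was called lower than the parental library in SKOV3, with a difference of -2.48, and the difference in Hey was -0.94, close to the 2-fold threshold. The SKOV3 daughter value is near 0, and no ratio is given for it.

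ENG (chr9:127815013-127854658, minus strand) was present in Hey and nearly absent from the SKOV3 libraries. The Hey values were 137 TPM for parental cells, 85.5 for PGCCs and 154 for daughter cells. SKOV3 parental cells were listed at 0, with 0.0516 TPM in PGCCs and 0.096 in daughter cells. The Hey PGCC library was the lowest of that line, 0.67 below parental cells and 0.84 below daughter cells, both short of 2-fold. ENG is also a marker of endothelial cells, and CDH5 stood higher in Hey as well, while the other 3 endothelial markers stayed below 1 TPM in every library. The part of such cells in the ENG level was not tested.

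KIT, THY1 and PROM1 were scarce in all libraries. KIT (chr4:54657267-54740783, plus strand) stood at 0.327, 0.249 and 0.215 TPM in Hey and 1.15, 1.59 and 0.71 TPM in SKOV3. THY1 (chr11:119415476-119424985, minus strand) was listed at 0 in both parental libraries, at 0.0292 and 0.561 TPM in PGCCs of Hey and SKOV3, and at 0.0115 and 0.069 TPM in daughter cells. PROM1 (chr4:15963076-16084378, minus strand) was above 0 in the PGCC libraries only, with 0.0987 TPM in Hey and 0.0197 TPM in SKOV3. The PGCC library was thus the highest of its line for THY1 and PROM1 in both lines, at levels below 1 TPM. Neither gene was called in any comparison. More genes in general were above 0 in the Hey PGCC library, 25370, than in the Hey parental library, 19920, or the Hey daughter library, 20154. In SKOV3 the counts were 22041 for parental cells, 23449 for PGCCs and 23893 for daughter cells.

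**Figure D1:**
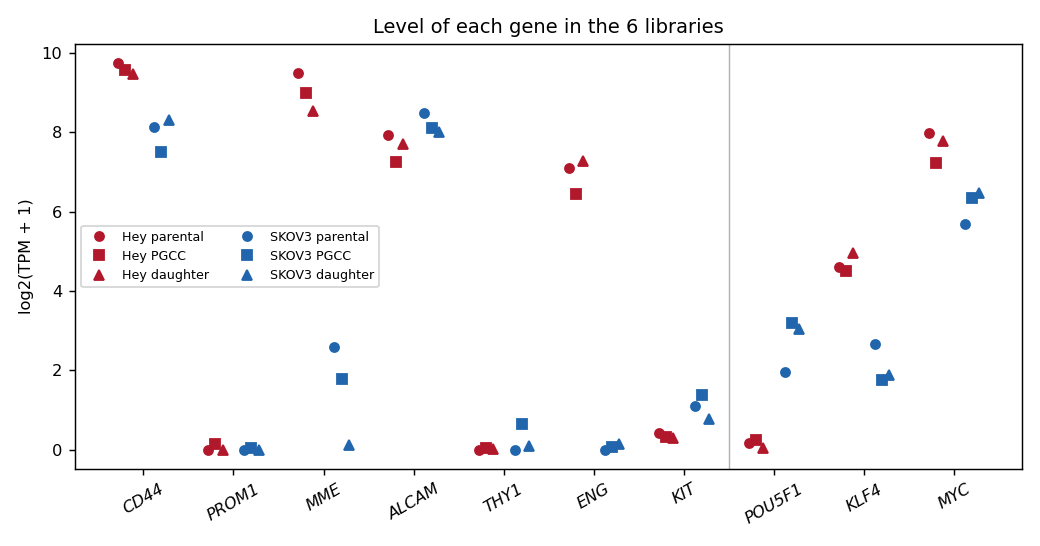
Level of each of the 10 genes as log2(TPM + 1) (vertical axis) in the 6 libraries, 1 point per library, with colour for the line, shape for the state and a vertical line between surface markers and transcription factors. MME and ENG are far higher in all Hey libraries, POU5F1 is higher in all SKOV3 libraries, and PROM1 and THY1 lie near 0 in both lines.

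Among the transcription factors, POU5F1 (chr6:31164337-31180731, minus strand) was the only member called in PGCCs against parental cells. It stood at 2.86 TPM in SKOV3 parental cells, 8.13 in PGCCs and 7.22 in the daughter library. In Hey it stood at 0.116, 0.181 and 0.0292 TPM. PGCCs and daughter cells of SKOV3 exceeded parental cells by 1.24 and 1.09, while the differences in Hey were 0.08 and -0.12 at levels below 1 TPM. In SKOV3, genes with GC-rich transcripts had the higher differences between PGCCs and parental cells, over 13468 genes (Spearman's rho = 0.728, across genes, which are not independent replicates), whereas rho was -0.0471 in Hey. After removal of this trend, and of one with transcript length, the POU5F1 differences in SKOV3 were 0.96 for PGCCs and 0.87 for daughter cells, both below 2-fold. Between daughter and parental cells the relation with GC content was weaker, at a rho of 0.149. The POU5F1 difference between SKOV3 daughter and parental cells was also below 2-fold after median-ratio scaling, at 0.89, and after quantile scaling, at 0.72.

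POU5F1 has processed copies elsewhere in the genome that share much of its sequence, so its reads may be divided among them. The copy POU5F1B stood at 0 to 0.137 TPM over the 6 libraries, and POU5F1P2, POU5F1P3, POU5F1P4, POU5F1P5, POU5F1P6 and POU5F1P7 were listed at 0 in all. PSORS1C3, which overlaps the POU5F1 region, stood at 0.123, 1.21 and 1.99 TPM in SKOV3 parental cells, PGCCs and daughter cells and at 0 in Hey. The division of reads between overlapping genes is uncertain, and PSORS1C3 is named here after its values were seen. The neighbour TCF19 did not share the SKOV3 order of POU5F1, with 37.8, 37.4 and 24.6 TPM.

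KLF4 (chr9:107484852-107490482, minus strand) stood at 23.1 TPM in Hey parental cells, 21.6 in PGCCs and 30.0 in the daughter library. In SKOV3 it stood at 5.34, 2.38 and 2.66 TPM. The lines did not overlap. The SKOV3 PGCC and daughter libraries were below parental cells by 0.91 and 0.79 on the log2(TPM + 1) scale, short of the threshold. As plain TPM ratios the parental value was 2.24 and 2.01 times as high, and after removal of the GC and length trend the differences were -1.43 and -1.13, past 2-fold.

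MYC (chr8:127735434-127742951, plus strand) stood at 253 TPM in Hey parental cells, 148 in PGCCs and 218 in the daughter library. In SKOV3 it stood at 50.4, 80.0 and 87.2 TPM. The PGCC library was the lowest of the Hey libraries, and the parental library was the lowest of the SKOV3 libraries. PGCCs minus parental cells gave -0.77 in Hey and 0.65 in SKOV3, neither past 2-fold. After removal of the GC and length trend these were -0.71 and 0.30.

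When PGCCs were compared to parental cells, 0 of the 10 members were called in Hey and 1, POU5F1, was higher in SKOV3. Among the 31474 genes above 0 in any library, 7.46% were called in Hey and 8.25% in SKOV3, where 5.4% were higher. When daughter cells were compared to parental cells, 0 members were called in Hey, against 5.72% of genes. In SKOV3, MME was lower and POU5F1 was higher, 2 members against 13.2% of genes, of which 3.67% were lower and 9.57% higher. When daughter cells were compared to PGCCs, 0 members were called in Hey, against 10.1% of genes, and 1, MME, was lower in SKOV3, against 14.2% called and 5.23% called lower. No member moved past 2-fold the same way in Hey and SKOV3, which 0.858% of genes did in PGCCs against parental cells, 0.794% in daughter cells against parental cells and 1.15% in daughter cells against PGCCs. Over the 10 members, the median of PGCCs minus parental cells was -0.12 for Hey and 0.05 for SKOV3, and that of all 14988 genes averaging 1 TPM or more over the libraries, termed expressed here, was 0 in Hey and 0.02 in SKOV3. The comparisons within a line share their libraries. Of the 10 members 7 were expressed by this measure, ENG and POU5F1 through 1 line.

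**Figure D2:**
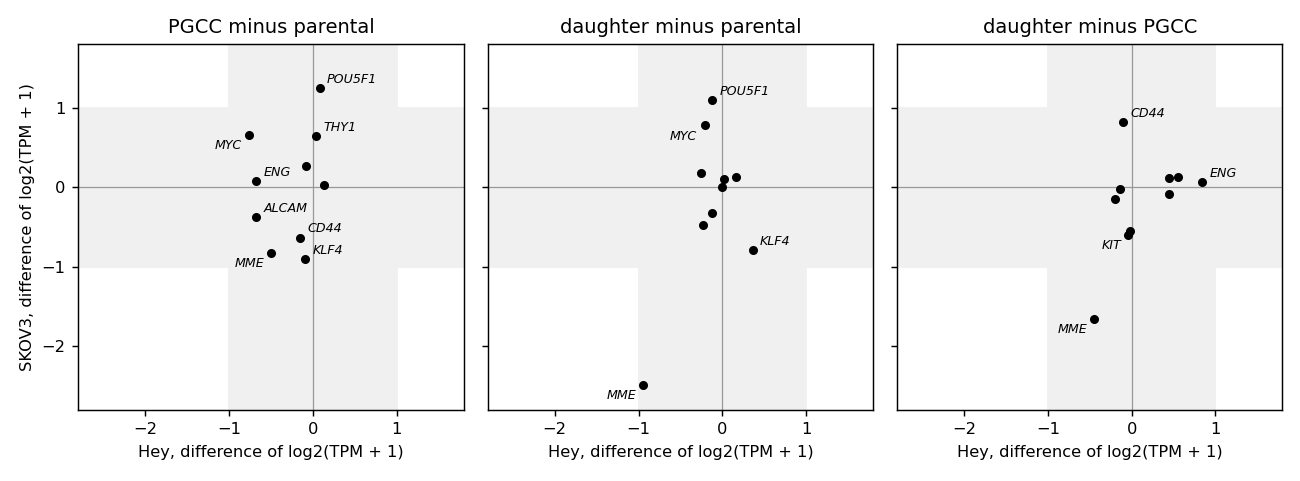
Difference of log2(TPM + 1) in Hey (horizontal axis) and in SKOV3 (vertical axis) for each of the 10 genes, 1 panel per comparison, with grey bands for differences under 2-fold in a line and names beside the genes farthest from 0. MME lies at the lower left in all 3 panels, and MYC lies at the upper left for PGCCs against parental cells, at -0.77 in Hey and 0.65 in SKOV3.

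The lines were then used as the repeat of each state. By their titles, day 3 in Hey and day 7 in SKOV3, the PGCC libraries may differ in recovery time as well as in line. limma was fitted to the 14988 expressed genes, with state and cell line as terms, and 7 members were tested. No member had an adjusted p under 0.05 in any of the 3 state comparisons. Of all genes tested, 0.02% passed for PGCCs against parental cells, 0.0133% for daughter cells against parental cells and 0% for daughter cells against PGCCs. The shares with an unadjusted p under 0.05 were 2.73%, 3.39% and 5.06%. MME had the largest fitted difference of the members, -1.71 between daughter and parental cells (SE 0.467, 95% interval -2.81 to -0.62, unadjusted p = 0.00739 and adjusted p = 1 by limma). It was the only member with an unadjusted limma p under 0.05 in a state comparison. The intervals of the others were wide. That of POU5F1 between PGCCs and parental cells ran from -0.67 to 1.99, and that of MYC from -1.08 to 0.97, so a 2-fold change shared by the lines lies within both.

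For 7 of the 10 members (CD44, MME, ENG, KIT, POU5F1, KLF4 and MYC), the mean difference between the lines exceeded the range over the states in either line. This did not hold for ALCAM, THY1 or PROM1. The share of all genes that meet this criterion was not computed, so it is not shown to be particular to the members. Of the 10 members 5 differed at least 2-fold between the lines in all 3 states, with CD44, MME, ENG and KLF4 higher in Hey and POU5F1 lower. Of the 31474 genes, 7.88% did so, 2.28% higher in Hey and 5.6% lower. For 8 of the 10 members, all but PROM1 and THY1, the 3 values of a line did not overlap those of the other line, which held for 29.3% of the 31474 genes. Of the 31474 genes 14988 were expressed, against 7 of the 10 members, and a gene near 0 can hardly reach 2-fold on this scale. These shares are not given for expressed genes alone, so the excess of the members over genes of like level is not known. In the limma fit, 20.6% of all genes tested had an adjusted p under 0.05 between the lines, and 36.7% had an unadjusted p under 0.05. ENG and POU5F1 entered this test through the line in which they were high, so no p is given for them. The fitted difference, Hey minus SKOV3, was 6.87 for ENG and -2.58 for POU5F1. Because ENG was listed at 0 in SKOV3 parental cells, its value depends on the pseudocount and is no measured fold.

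Of the other 5 members tested, MME differed by 7.52 (SE 0.382, limma adjusted p = 0.000116), KLF4 by 2.58 (SE 0.368, limma adjusted p = 0.00407), CD44 by 1.62 (SE 0.308, limma adjusted p = 0.0119) and MYC by 1.499 (SE 0.356, limma adjusted p = 0.0261), all higher in Hey. ALCAM differed by -0.57, with a 95% interval from -1.25 to 0.10 and a limma adjusted p of 0.193. With no filter on low values, over 31474 genes, the limma adjusted p was 0.0175 for MME, 0.0632 for KLF4, 0.0958 for CD44 and 0.118 for MYC, so of these 4 only MME passed. The 3 libraries of a line come from 1 line and are not independent samples of it, so these p-values describe these libraries. Without the Hey PGCC library or without the SKOV3 PGCC library, 0 of the 14988 genes had a limma adjusted p under 0.05, with adjusted p-values of 0.0677 and 0.0651 for MME, while 4086 and 4077 genes had an unadjusted p under 0.05. CD44 had a limma adjusted p of 0.0902 without the Hey parental library and 0.0927 without the SKOV3 parental library. MYC had limma adjusted p-values from 0.0807 to 0.197 when any 1 library was left out. The median of all genes was itself shifted by -0.29 to -0.38 between the lines. After division by median ratios this shift was -0.01 to -0.08, and MME, KLF4, CD44 and MYC passed as before.

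**Figure D3:**
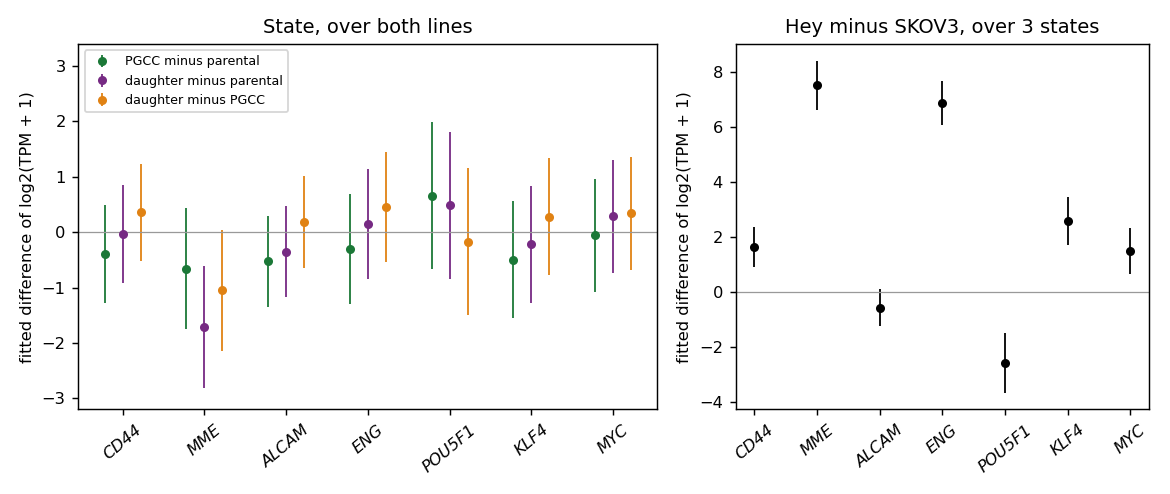
Fitted differences of log2(TPM + 1) from limma (vertical axes) for the 7 members tested, with 95% intervals as bars, for the 3 state comparisons over both lines (left) and for Hey minus SKOV3 over the 3 states (right). The bars of the state comparisons cross 0 except for MME in daughter cells against parental cells, while those of the line comparison clear 0 except for ALCAM. ENG and POU5F1 entered the fit through the line in which they were high, so their bars in the line comparison are no test.

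Genes around the members were described by lists. Counts of a list run over all its genes, and the background is the share called among the 31474 genes above 0. A listed gene at 0 in every library cannot be called. In PGCCs against parental cells, 4.83% of these genes were called higher and 2.63% lower in Hey, and 5.4% and 2.85% in SKOV3. In daughter cells against parental cells the shares were 3.7% and 2.02% in Hey and 9.57% and 3.67% in SKOV3. In daughter cells against PGCCs they were 5.18% and 4.97% in Hey and 9.01% and 5.23% in SKOV3. The shares were higher among expressed genes, of which 12.9% in Hey and 14.9% in SKOV3 were called in PGCCs against parental cells.

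Of 39 ligands and partners, 2 were called higher and 1 lower in Hey PGCCs against parental cells, and 5 higher and 2 lower in SKOV3. HMMR, another hyaluronan receptor, whose transcript is high in dividing cells, was lower in PGCCs of both lines. It stood at 91.2 TPM in Hey parental cells, 20.8 in PGCCs and 125 in the daughter library, and at 84.2, 29.7 and 75.9 TPM in SKOV3. It was the only listed partner that PGCCs of Hey and SKOV3 shared in a call against parental cells. HAS2, a hyaluronan synthase, went from 2.51 to 14.5 TPM and SPP1 (osteopontin, a CD44 ligand) from 54.7 to 188 TPM between Hey parental cells and PGCCs. In SKOV3, KITLG (stem cell factor, the ligand of KIT) went from 34.4 to 9.47 TPM and ACVRL1, a receptor that acts with endoglin, from 1.27 to 5.10 TPM.

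In daughter cells against parental cells, 0 ligands and partners were higher and 5 lower in Hey, and 6 were higher and 4 lower in SKOV3. None moved past 2-fold the same way in Hey and SKOV3. In Hey the largest differences were those of ITGB3 (integrin β3, 39.9 to 1.64 TPM), SPP1 (54.7 to 9.68 TPM) and VCAN (versican, a matrix proteoglycan, 21.7 to 3.54 TPM). TGFB2, a ligand of the family that endoglin binds, went from 3.005 to 31.3 TPM in SKOV3, the proteoglycan SDC4 from 104 to 304 TPM and PROM2, a relative of PROM1, from 5.54 to 0.206 TPM. The median difference of the expressed partners was -0.27 in Hey and 0.15 in SKOV3, beside 0.05 and 0.15 for all expressed genes.

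Of 26 other surface markers of stem, epithelial or mesenchymal cells, 2 were called higher and 1 lower in Hey PGCCs, and 1 higher and 1 lower in SKOV3 PGCCs. In Hey, CD24, a small mucin-like adhesion protein, went from 2.72 to 12.7 TPM, the chemokine receptor CXCR4 from 8.49 to 25.2 TPM and the sialomucin PODXL from 227 to 108 TPM. In SKOV3, the adhesion molecule L1CAM went from 83.03 to 193 TPM, and CXCR4 moved the other way, from 1.67 to 0.307 TPM. No marker of this list was called alike in PGCCs of Hey and SKOV3.

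Daughter cells differed from parental cells in more of these markers, with 1 higher and 7 lower in Hey and 5 higher and 6 lower in SKOV3. CDCP1, a transmembrane substrate of SRC kinases, and ANPEP (CD13), an aminopeptidase on the cell surface like MME, were lower in both lines. CDCP1 stood at 96.6 TPM in Hey parental cells, 109 in PGCCs and 0.266 in the daughter library, and at 18.3, 23.9 and 6.02 TPM in SKOV3. ANPEP stood at 281, 186 and 116 TPM in Hey and 9.58, 18.3 and 0.573 TPM in SKOV3. The epithelial adhesion molecule EPCAM went from 68.8 TPM in SKOV3 parental cells to 8.15 in daughter cells and stood at 0.957 and 0.369 TPM in Hey. MCAM (CD146) went from 22.7 to 3.56 TPM in Hey daughter cells and from 0.616 to 4.01 TPM in SKOV3 daughter cells, past 2-fold in opposite directions. CD24 was the marker called higher in Hey daughter cells, from 2.72 to 12.9 TPM, and went from 513 to 297 TPM in SKOV3, short of 2-fold. CD34 went from 0.292 to 5.25 TPM in SKOV3 daughter cells. PDGFRB, CD200 and DPP4 were also called higher there and are named here after their values were seen.

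The pluripotency network around POU5F1 was mostly silent. Of 32 listed genes, 7 were expressed and 6 were listed at 0 in all libraries. SOX2 was at most 0.163 TPM and NANOG at most 0.0735 TPM in any library, and both are named here after their values were seen. In PGCCs against parental cells, 0 genes of the list were called in either line. The 7 expressed genes were the more general regulators STAT3, SMARCA4, TCF3 and SOX4, besides TBX3, TFCP2L1 and DNMT3B. TBX3 stood at 25.4, 25.3 and 33.1 TPM in Hey parental cells, PGCCs and daughter cells and at most 0.306 TPM in SKOV3. STAT3 carries the LIF signal in mouse embryonic stem cells. Its difference between PGCCs and parental cells was 0.75 in Hey (26.2 to 44.7 TPM) and 0.81 in SKOV3 (62.3 to 110 TPM). The difference was -0.74 in Hey and 0.67 in SKOV3 for TCF3 and -0.70 and 0.40 for SMARCA4, opposite ways in the lines. SOX4 differed by -0.29 and -0.88.

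In daughter cells against parental cells, 1 gene of the network, SOX4, was lower in Hey, from 16.8 to 6.27 TPM. In SKOV3, 3 genes were higher. TFCP2L1, a factor of naive embryonic stem cells, went from 1.11 to 4.997 TPM, the DNA methyltransferase DNMT3B from 7.99 to 23.5 TPM, and DPPA2 from 0.118 to 1.43 TPM. DPPA2 averaged under 1 TPM and is named here after its values were seen.

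Of 16 Kruppel-like factors, 0 were called in Hey PGCCs and 1, KLF16, was higher in SKOV3 PGCCs, from 3.95 to 9.52 TPM. KLF5 was lower in daughter cells against PGCCs in both lines, from 25.2 to 10.4 TPM in Hey and from 142 to 50.6 TPM in SKOV3. KLF2 stood at 6.14, 6.39 and 2.84 TPM in Hey and 1.12, 1.63 and 0.573 TPM in SKOV3, with no difference past 2-fold on the log2(TPM + 1) scale. KLF10 went from 86.1 to 21.7 TPM between SKOV3 parental and daughter cells.

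Beside MYC, which differed one way in Hey PGCCs and the other way in SKOV3 PGCCs, 40 of its known target genes, mainly of ribosome and nucleotide production, were read. In Hey PGCCs 0 targets were called higher and 7 lower, and 34 of the 39 expressed were below parental cells. Their median difference was -0.50, beside 0 for all expressed genes. The largest were CAD (nucleotide synthesis, 30.2 to 7.56 TPM), FBL (fibrillarin of the nucleolus, 324 to 114 TPM) and IMPDH2 (guanine nucleotide synthesis, 365 to 135 TPM). In SKOV3 PGCCs 5 targets were higher and 1 lower, 26 of 39 were above parental cells, and the median was 0.22, or 0.03 after removal of the GC and length trend. PPAN and BOP1, both of ribosome assembly, went from 7.31 to 27.2 TPM and from 11.2 to 28.0 TPM. MTHFD2, a mitochondrial folate enzyme, was lower in PGCCs of both lines, from 217 to 106 TPM in Hey and from 64.2 to 23.7 TPM in SKOV3.

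In daughter cells against PGCCs the targets had a median of 0.52 in Hey, with 8 higher and 1 lower, and -0.51 in SKOV3, with 1 higher and 9 lower. The corresponding medians of all genes were 0.03 and 0.12. In SKOV3 the differences of this comparison were lower for genes with GC-rich transcripts (Spearman's rho = -0.461 across 13468 genes, which are not independent replicates). Over the alternatives the SKOV3 target median ranged from -0.66 to -0.40. MYC differed by 0.56 in Hey and 0.12 in SKOV3 in this comparison, so the target median and MYC had opposite signs in SKOV3. Under median-ratio scaling MYC differed by -0.03 there, the same sign as the target median of -0.66. In daughter cells against parental cells the target median was 0.12 in Hey and -0.28 in SKOV3, and MYC differed by -0.21 and 0.78. The Hey median changed sign, to -0.01, under median-ratio scaling and after removal of the GC and length trend. The genes of the list share libraries with MYC and are not independent of each other.

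**Figure D4:**
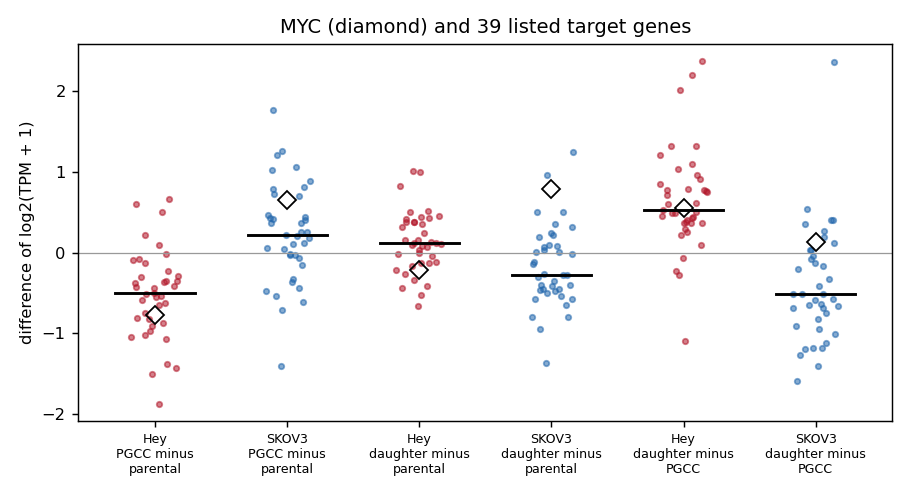
Difference of log2(TPM + 1) (vertical axis) of 39 MYC target genes (points), their median (bar) and MYC itself (diamond) in each line and comparison. The bar and the diamond lie on the same side of 0 in PGCCs against parental cells of both lines and on opposite sides in daughter cells against parental cells of both lines and in daughter cells against PGCCs of SKOV3, although under median-ratio scaling MYC at -0.03 in the last and the Hey daughter against parental median at -0.01 change sides.

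Of 19 genes that encode MYC relatives, partners or regulators, 0 were higher and 1 lower in Hey PGCCs, and 4 were higher and 0 lower in SKOV3 PGCCs. In Hey the ubiquitin ligase component SKP2 went from 31.9 to 9.08 TPM and stood at 35.6 TPM in daughter cells. In SKOV3 the MAX-binding repressors MXD4 and MXD3 went from 2.002 to 9.21 TPM and from 2.905 to 8.31 TPM, the related factor MLXIP from 12.0 to 35.6 TPM and ZBTB17 (MIZ1, which binds MYC) from 6.55 to 18.55 TPM. MXD3 was not among the largest 3 and is named here after its values were seen. MAX, the obligate partner of MYC, stood at 36.5 to 54.9 TPM in Hey and 38.6 to 45.6 TPM in SKOV3, and is also named after its values were seen.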

How the data were processed

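Total RNA of 6 libraries was sequenced, 1 for each of 3 states in 2 cell lines. Per the submitters' processing notes, reads were trimmed with fastp and quantified with Salmon 0.14.1 on hg38, and the authors deposited TPM values by gene symbol. The annotation release and the step from transcripts to genes are not given in the sources used here. The values were used as deposited, with no count test. Differences of log2(TPM + 1) were computed in Python 3.11.15 (pandas 2.3.3) and called at 1 or more. Genes averaging 1 TPM or more over the 6 libraries (expressed genes) entered limma 3.58.1 (R 4.3.3), with state and cell line as terms, an intensity trend and Benjamini-Hochberg adjustment over all genes tested, and it had 2 residual degrees of freedom. Fold calls, median-ratio scaling, the GC correction and the limma comparisons of PGCCs with parental cells and of the lines were tested on data with planted changes. The other steps had no such test. Positions, GC content and length came from GENCODE release 44, and promoter windows from RefSeq.

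The members, the gene lists and the tests were chosen with earlier results of these data known. From each list the text draws on genes called alike in Hey and SKOV3 and, in each line and comparison, on the 3 largest differences among expressed genes, besides all POU5F1 copies and, for each of the 7 expressed members, the 2 genes with the highest Pearson r over the 6 libraries. Alternatives were a pseudocount of 0.1, other filters, median-ratio and quantile scaling, mitochondrial genes left out, other thresholds, no intensity trend, a fit without the second factor, leaving out each library, and a lowess correction for GC content and length (fraction 0.3), which was added after the data were seen.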

Additional observations from a re-analysis of the deposited data

Results flagged for a closer look

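MYC was picked out because PGCCs and parental cells differed in opposite directions in the lines, by at least 1.5-fold in each. The difference of log2(TPM + 1) was -0.77 in Hey (253 to 148 TPM) and 0.65 in SKOV3 (50.4 to 80.0 TPM). The values ranged from -0.84 to -0.62 in Hey and from 0.30 to 0.66 in SKOV3 over the alternatives. The 0.30 in SKOV3 was obtained after removal of the GC and length trend and is short of 1.5-fold, so MYC would not be flagged under that correction. With 1 library per group, the difference between the lines was not tested. The PGCC titles name day 3 in Hey and day 7 in SKOV3, so recovery time may differ along with the line.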

How the results depend on the processing

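No difference of a member past its threshold changed sign under the alternatives run. Of 720 alternative values 657 kept their sign and their side of the threshold, 36 passed it and 11 no longer did. The other 16 stayed below the threshold but changed sign. They include abundant members in SKOV3. ALCAM in PGCCs against parental cells went from -0.38 to as high as 0.18. CD44 in daughter cells against parental cells went from 0.18 to as low as -0.04. For PGCCs against parental cells in SKOV3, where 1 member was called, 4 were called with a pseudocount of 0.1, 2 after quantile scaling, 6 at 1.5-fold, and 0 at 3-fold or among genes averaging 5 TPM or more, which leaves out POU5F1. For the same comparison in Hey (0 called), 3 were called at 1.5-fold. The share of all genes called under such alternative settings was not computed, so these counts and the fold counts below describe the members only. For daughter cells against parental cells in Hey (0 called), 1 member, MME, was called after median-ratio scaling and 1 at 1.5-fold. In SKOV3 (2 called), 1 was called after median-ratio scaling, at 3-fold or among genes averaging 5 TPM or more, and 4 at 1.5-fold. POU5F1 was the member lost after median-ratio scaling (0.89), and after quantile scaling it was also lost (0.72) while KLF4 passed (-1.24), so that the count stayed at 2. For daughter cells against PGCCs, 1 member in Hey (0 called) and 3 in SKOV3 (1 called) were called with a pseudocount of 0.1, and likewise 1 and 3 at 1.5-fold. After removal of the GC and length trend, the counts in SKOV3 stayed at 1 and 2 against parental cells, but KLF4 took the place of POU5F1. In the limma line comparison, ENG and POU5F1 are left out here because they entered through 1 line. CD44, MME, KLF4 and MYC passed, beside 20.6% of all genes tested. With no filter only MME of these passed, beside 1.05% of genes. None of them, and no other gene, passed without either PGCC library. With any other 1 library left out, MME and KLF4 passed, beside 6.56% to 14.1% of genes. CD44 also passed without either daughter library. The cell line served as the block of the state comparisons. In the fit with no replicate block, 0 members passed in each state comparison, beside 0% of all genes. CD44, MME, KLF4 and MYC passed in the line comparison, beside 25.5% of genes, with ENG and POU5F1 again left out. TPM without counts limits all values near 0.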

Other observations

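Among 14987 other expressed genes, those whose log2(TPM + 1) followed each member most closely over the 6 libraries were listed by Pearson's r. The libraries fall into groups by cell line, so r mainly reflects the difference between lines, and it is given as a description. For CD44 they were TSC22D2 and CREBL2, for MME PLAG1 (r = 0.999) and TIPARP (r = 0.998), for ALCAM TCF7L2 and SUDS3, for KLF4 RECQL and ADIPOR2, and for MYC the ETS factor ETV4 (r = 0.999) and the ferlin MYOF (r = 0.993). ETV4 stood at 30.6, 16.6 and 23.7 TPM in Hey parental cells, PGCCs and daughter cells and at 4.48, 8.01 and 8.40 TPM in SKOV3, the same order as MYC in both lines. For POU5F1 they were AL596442.3, listed at 0 in Hey, and APBA2, an adaptor protein, with 2.86, 8.12 and 7.59 TPM in SKOV3. For ENG they were ADAMTSL1, which stood at 28.9, 22.9 and 36.0 TPM in Hey and was listed at 0 in SKOV3, and HSD17B2, a steroid dehydrogenase.

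The surface enzymes MME and ANPEP, both peptidases, were lowest in the daughter library of each line. POU2F2, a POU factor of lymphoid cells, stood at 7.00, 24.0 and 23.8 TPM in Hey parental cells, PGCCs and daughter cells and at most 0.295 TPM in SKOV3, while POU2F1, which is widely expressed, stood at 3.71 to 4.77 TPM in Hey and 7.24 to 9.86 TPM in SKOV3.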
